A study of Homo sapiens with 14 samples.

Results

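The genes of the proteasome subunits were described in 2 lists of accessible chromatin regions from multiple myeloma (MM) cell lines, one list for MM.1S and one for RPMI8226. The members were the protein-coding genes of GENCODE release 44 named PSMA, PSMB, PSMC, PSMD, PSME or PSMF followed by a number. The rule used names and no measured value, but it was set with earlier results of these data known. The rule found 44 genes of 20033 on chromosomes 1 to 22, X and Y. They were 8 genes of the alpha ring of the 20S core, 7 of its constitutive beta ring, 4 inducible or tissue-restricted beta genes, 6 ATPases and 14 non-ATPase genes of the 19S regulator, 4 activators and 1 inhibitor-type regulator.

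The proteasome is the protease that degrades proteins tagged with ubiquitin. Its 20S core is a barrel of alpha and beta subunits with the cutting sites inside, and the 19S regulator on its ends binds, unfolds and feeds in the substrate. Plasma cells and myeloma cells make large amounts of immunoglobulin and depend on this machinery, and the proteasome inhibitors used against MM bind the catalytic beta subunit PSMB5.

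Omni-ATAC, which uses a transposase to insert adapters into open chromatin, was run on 14 libraries of both lines, which are established human MM cell lines. For MM.1S there were 3 libraries of cells grown alone (MONO), 3 of cells from the upper side of a transwell above HS5 cells (TSW), and 3 of cells from the lower chamber in contact with them (CO). RPMI8226 had 1 MONO, 2 TSW and 2 CO libraries. HS5 is an immortalized human bone marrow stromal line, so that 1 cell line stood for the stroma, and by the study's methods the MM cells were sorted as CD90-/CD38+ and a small remainder of HS5 cells was found in the CO sort. The question behind the design was how the stroma changes the chromatin of MM cells, through soluble factors and through contact.

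Each list gives the position of a peak and 1 whole number, read here as its support, the number of libraries of the line in which the authors called the peak. A support of 9 in MM.1S or of 5 in RPMI8226 therefore means a peak called in every library, and so under MONO, TSW and CO alike. An MM.1S peak with a support of 6 or less, or an RPMI8226 peak with 4 or less, could have been missing from all MONO libraries. The lists hold no read counts, so that no change in accessibility between culture conditions could be measured from them, and every comparison below is a description without a test. Read totals of the libraries stand in the supplement of the study and were not taken as data. By that source a single MONO library of MM.1S was far shallower than the rest, and the other MM.1S libraries were deeper than those of RPMI8226. A support below the number of libraries can therefore also reflect depth. The MM.1S list held 72802 peaks and the RPMI8226 list 79969, with a median width of 536 and 362 bp. Of 10 plasma cell markers, including SDC1, CD38 and IRF4, 10 had a promoter peak in both lines. In each line 9 of them had a promoter peak called in every library, beside 69.2% of all genes in MM.1S and 66.5% in RPMI8226. The exception was JCHAIN in MM.1S and SLAMF7 in RPMI8226. Of 10 stromal markers, 6 had one in MM.1S and 5 in RPMI8226, beside 76.8% and 71.8% of all protein-coding genes. THY1, the gene of CD90, COL3A1, LUM and POSTN had 0 promoter peaks in both lines, and COL1A1, FN1 and PDGFRB had one in every library of both. The stromal marker TWIST1 had a promoter peak of 1823 bp in all 9 MM.1S libraries and none in RPMI8226.

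The promoter sequences of the members came from the RefSeq table on GRCh38.p14, which covered 39 of the 44 genes (PSMA7, PSMB1, PSMB6, PSMB7 and PSMD4 were not matched). Each sequence ran from 250 bases before the start site to 50 bases after it. The first set is shown because the inducible genes PSMB8 and PSMB10 and the activator PSME2 held a sequence of the IRF type, GAAANNGAA, close to the start. Interferon regulatory factors are known to bind sequences of this type. The inducible gene PSMB9 held no such match, and PSMB4, PSMC2 and PSME1, which are not printed, also held one. Theirs began 68 bases before the start in PSMB4, 7 before it in PSMC2, and at base 7 counted from the start in PSME1. Closeness to the start was therefore not particular to the printed genes. Capitals mark the match on either strand, which began 3, 21 and 28 bases before the start in PSMB8, PSMB10 and PSME2, and each line ends 10 bases after the start, on the minus strand at chr6:32844038-32844167, chr16:67936841-67936970 and chr14:24146601-24146730.
PSMB8: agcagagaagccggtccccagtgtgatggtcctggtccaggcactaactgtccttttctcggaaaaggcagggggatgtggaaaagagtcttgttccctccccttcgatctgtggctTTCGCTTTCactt
PSMB10: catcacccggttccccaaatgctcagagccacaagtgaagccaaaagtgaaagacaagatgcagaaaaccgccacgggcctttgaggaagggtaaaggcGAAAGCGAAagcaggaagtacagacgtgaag
PSME2: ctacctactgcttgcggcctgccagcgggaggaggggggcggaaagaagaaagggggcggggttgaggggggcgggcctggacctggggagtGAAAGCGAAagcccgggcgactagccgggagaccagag

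The second set holds the core of the antioxidant response element (ARE), TGACNNNGC. NFE2L1, the factor that raises subunit genes when the proteasome is inhibited, and its relative NFE2L2 bind such elements together with small MAF proteins. Each line gives the 180 bases before the start with the match in capitals, which began 148 bases before the start in PSMB9, 104 in PSMB3, 37 in PSMD3, 149 and 102 in PSMD9, and 165 in PSMD12. The positions are chr6:32854012-32854191, chr17:38752561-38752740, chr17:39980627-39980806 and chr12:121888610-121888789 on the plus strand, and chr17:67366578-67366757 on the minus strand.
PSMB9: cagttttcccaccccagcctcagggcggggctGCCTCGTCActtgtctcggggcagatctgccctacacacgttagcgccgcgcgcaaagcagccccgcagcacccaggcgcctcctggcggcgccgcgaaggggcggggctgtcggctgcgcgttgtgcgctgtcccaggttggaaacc
PSMB3: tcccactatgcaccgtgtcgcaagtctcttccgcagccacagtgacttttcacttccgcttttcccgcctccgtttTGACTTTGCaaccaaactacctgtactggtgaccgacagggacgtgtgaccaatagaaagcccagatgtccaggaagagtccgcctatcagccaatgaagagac
PSMD3: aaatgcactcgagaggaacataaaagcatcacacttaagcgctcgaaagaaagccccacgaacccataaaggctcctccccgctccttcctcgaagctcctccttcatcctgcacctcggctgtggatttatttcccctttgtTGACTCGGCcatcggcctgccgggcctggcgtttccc
PSMD9: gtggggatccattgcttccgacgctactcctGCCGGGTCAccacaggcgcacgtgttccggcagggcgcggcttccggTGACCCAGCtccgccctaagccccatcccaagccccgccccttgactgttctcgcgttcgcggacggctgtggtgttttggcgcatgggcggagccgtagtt
PSMD12: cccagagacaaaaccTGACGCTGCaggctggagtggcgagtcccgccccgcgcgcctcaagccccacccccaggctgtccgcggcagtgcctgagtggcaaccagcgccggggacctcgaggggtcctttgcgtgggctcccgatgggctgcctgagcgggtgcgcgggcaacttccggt

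The third set shows the ETS sequence CCGGAAG, the kind of site bound by the ETS factor family, in 4 regulator genes where it lay next to the start. Each line begins 80 bases before the start, at chr3:64023495-64023574 on the minus strand and at chr19:38374491-38374570, chr11:236896-236975 and chr20:1118522-1118611 on the plus strand, and the PSMF1 line runs 10 bases past the start. Capitals mark the match on either strand.
PSMD6: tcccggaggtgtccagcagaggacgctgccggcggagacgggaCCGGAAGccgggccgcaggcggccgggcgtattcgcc
PSMD8: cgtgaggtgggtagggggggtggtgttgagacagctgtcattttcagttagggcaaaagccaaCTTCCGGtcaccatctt
PSMD13: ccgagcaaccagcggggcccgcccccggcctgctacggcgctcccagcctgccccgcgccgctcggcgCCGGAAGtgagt
PSMF1: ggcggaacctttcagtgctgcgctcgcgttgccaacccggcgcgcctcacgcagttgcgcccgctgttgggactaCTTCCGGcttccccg

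The last set compares PSMB5, whose promoter was open in both lines, with PSMB11 and PSMA8, whose promoters were not. Capitals mark CG dinucleotides in the 150 bases before the start, at chr14:23034901-23035050 on the minus strand and at chr14:23042062-23042211 and chr18:26133719-26133868 on the plus strand.
PSMB5: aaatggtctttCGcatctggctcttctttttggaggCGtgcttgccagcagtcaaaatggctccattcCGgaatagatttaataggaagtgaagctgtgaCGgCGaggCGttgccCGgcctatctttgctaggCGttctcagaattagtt
PSMB11: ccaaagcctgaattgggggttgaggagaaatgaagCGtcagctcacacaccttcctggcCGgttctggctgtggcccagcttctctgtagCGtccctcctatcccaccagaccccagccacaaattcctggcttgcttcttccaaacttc
PSMA8: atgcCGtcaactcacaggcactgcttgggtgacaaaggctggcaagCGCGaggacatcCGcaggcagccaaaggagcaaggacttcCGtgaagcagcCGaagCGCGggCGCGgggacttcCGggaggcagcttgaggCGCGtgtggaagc

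A promoter peak, meaning a peak within 2500 bp of any annotated transcription start site (TSS) of the gene, was present for 42 of 44 members in MM.1S and for the same 42 in RPMI8226. This was 95.5% of the members in each line, whereas the share over all protein-coding genes was 76.8% in MM.1S and 71.8% in RPMI8226. All 42, again 95.5% of the 44 members, had a promoter peak called in every library of the line. The share over all 20033 genes was 69.2% in MM.1S and 66.5% in RPMI8226. Of the genes with a promoter peak, 13865 of 15380 in MM.1S and 13327 of 14383 in RPMI8226 had one called in every library. All 42 also had a promoter peak that overlapped a peak of the other line by at least 1 bp. Among all genes with a promoter peak this held for 87.5% of those in MM.1S and 93.4% of those in RPMI8226. The promoters of 42 members were thus called open in all 14 libraries, under MONO, TSW and CO in both lines, as were those of 62.0% of all protein-coding genes.

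The 87 genes of the cytosolic ribosomal proteins, another machinery that nearly all cells use, served as a second comparison. Of these, 84 had a promoter peak in every library of each line, a share of 96.6%. Members had a median of 8 annotated TSSs against 5 over all genes, and more TSSs give a gene a larger promoter window. With the canonical TSS of each gene alone, and asking that this base itself lie inside a peak, the same 42 members remained in both lines and all 42 of those peaks were called in every library. Over all genes the share with the start inside a peak was 62.1% in MM.1S and 53.9% in RPMI8226. With that peak called in every library it was 58.5% and 51.3%. The map of peaks around the start sites shows this peak at the start of every open member.

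**Figure D1:**
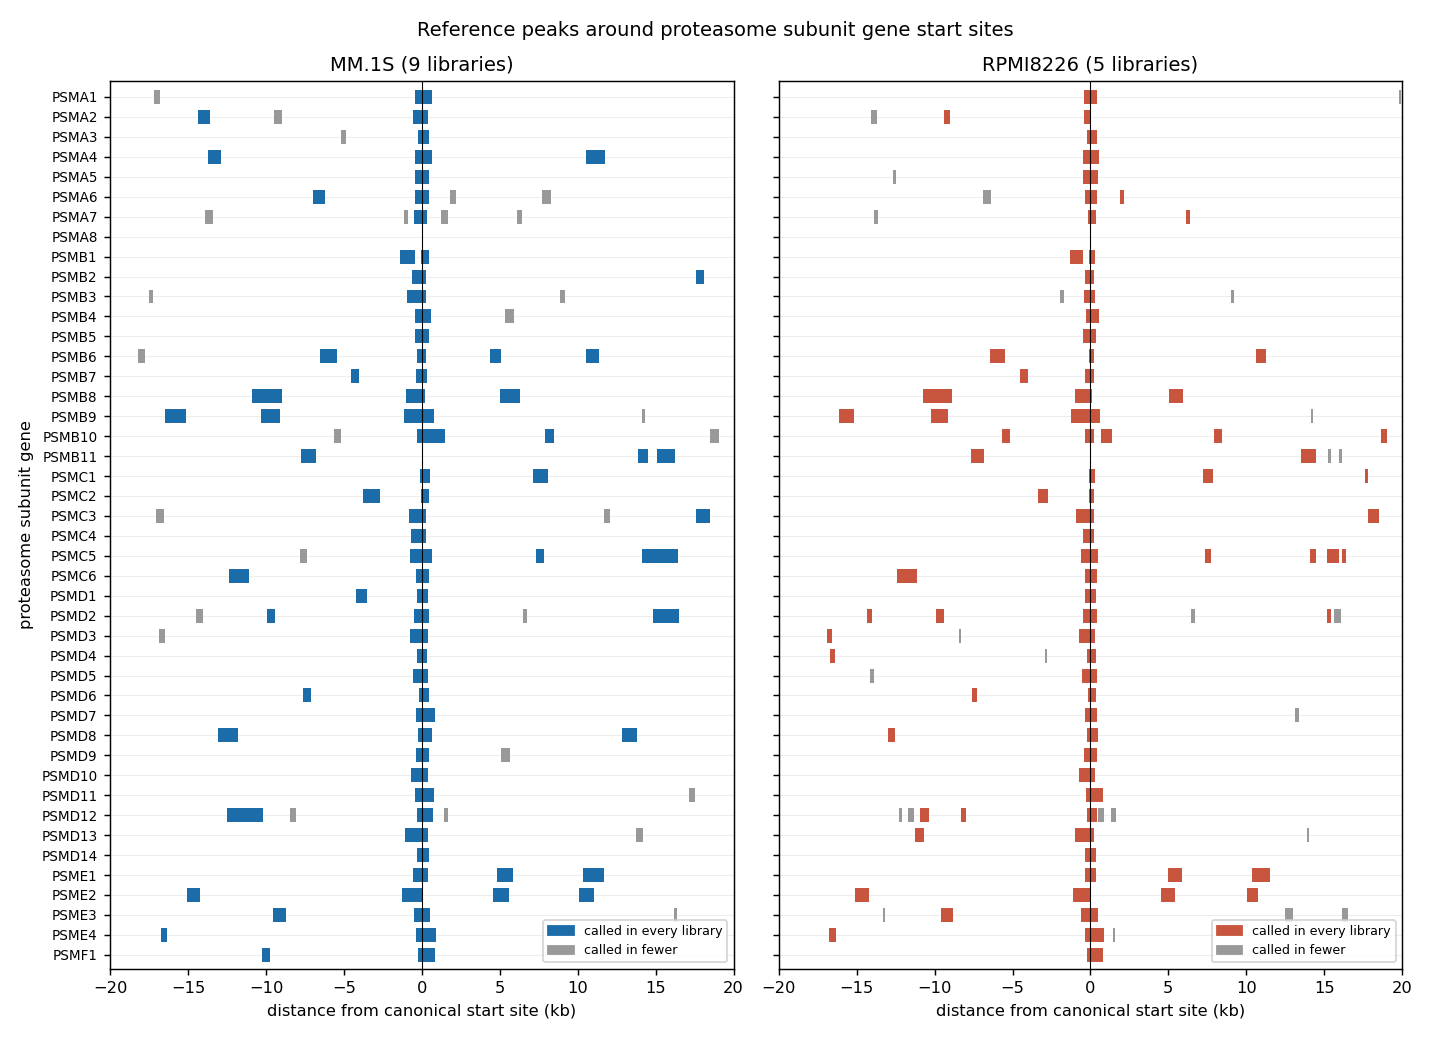
Reference peaks within 20 kb of the canonical start site of the 44 proteasome subunit genes (rows, grouped by role) in MM.1S (left) and RPMI8226 (right). The x axis is the distance from the start in kb, negative upstream. Coloured bars are peaks called in every library of the line and grey bars are peaks called in fewer. A coloured bar lies on the start of 42 genes in each line, and the rows of PSMA8 and PSMB11 have none there.

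The exceptions in both lines were PSMA8 and PSMB11, the members with the most restricted use. PSMA8 is an alpha subunit of the testis, where it takes the place of PSMA7 in germ cells, and PSMB11 is a catalytic beta subunit of the cortical epithelium of the thymus. PSMA8 (chr18:26133852-26193355, plus strand) had 4 peaks in its body and 20 kb flanks in MM.1S and 5 in RPMI8226, none of them in the promoter window of any protein-coding gene. The nearest lay 33.9 kb downstream of the start in both lines, with a width of 218 bp in MM.1S and 213 bp in RPMI8226, and was called in every library. All 4 MM.1S peaks and 3 of the RPMI8226 peaks were called in every library, so that positions inside the gene were called open while its start lay in no peak.

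PSMB11 (chr14:23042212-23044060, plus strand) lies 7312 bp from the start of PSMB5 and had no peak in its own body. Its nearest peak in both lines was the promoter peak of PSMB5, with its centre 7287 bp upstream of the PSMB11 start in MM.1S and 7268 bp in RPMI8226. The 150 bases before the start held 3 CG dinucleotides in PSMB11, 8 in PSMB5 and 13 in PSMA8, as printed above. The observed over expected CG ratio of the whole 300 bases was 0.169 in PSMB11 and 0.922 in PSMA8, beside a median of 0.769 over the 39 members with a sequence. The closed promoters therefore lay on both sides of that median.

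The width of the widest promoter peak had a median of 991 bp over the 42 open members in MM.1S, with quartiles of 882.5 and 1172.25 bp. Over all genes with a promoter peak the median was 1047 bp, with quartiles of 802.75 and 1327 bp. In RPMI8226 the members had a median of 799 bp (quartiles 668 and 1046.5 bp) and all genes one of 761 bp (quartiles 543 and 998 bp). Of the 42, 20 were wider than the median gene in MM.1S and 23 in RPMI8226. The member medians lay 56 bp below the all-gene median in one line and 38 bp above it in the other, well inside the quartiles. The ribosomal protein genes had medians of 1031.5 and 782.5 bp. The share of members with a promoter peak thus lay above that of all genes, while their median widths lay within the middle range of all genes.

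**Figure D2:**
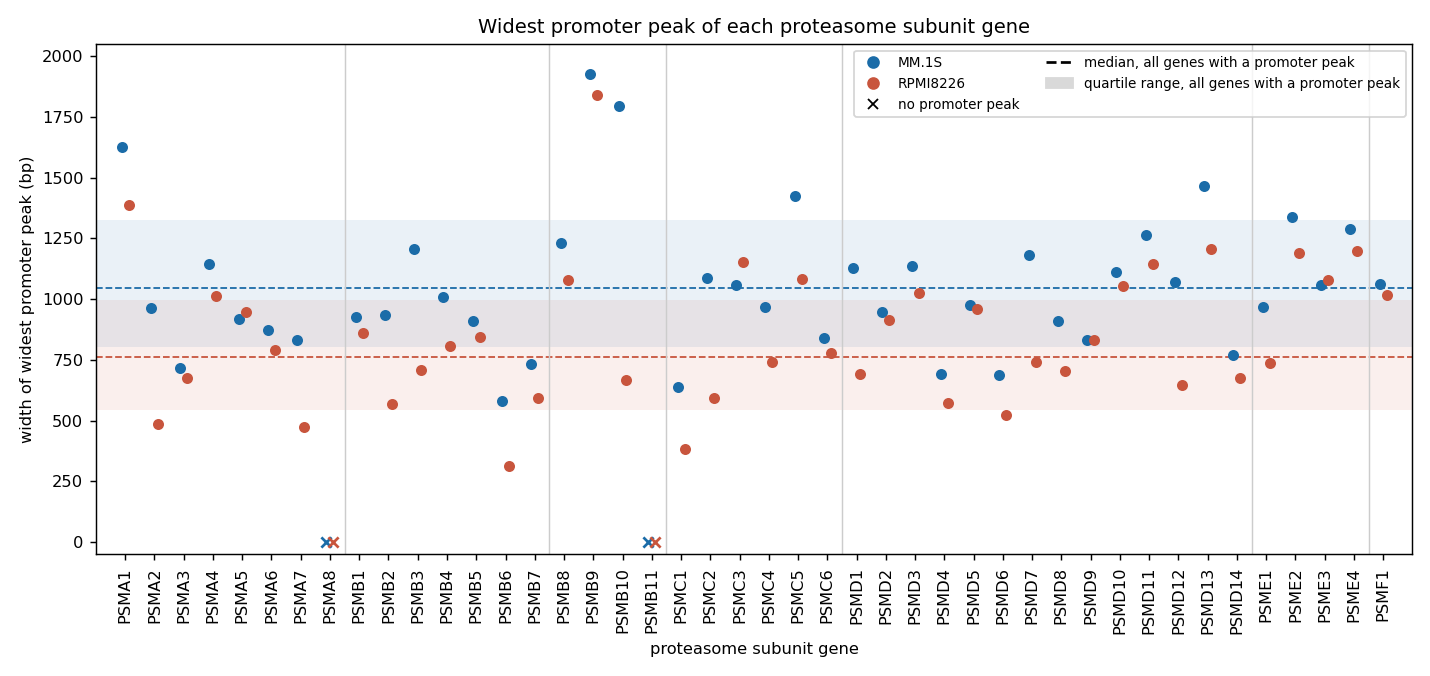
Width in bp of the widest promoter peak of each of the 44 proteasome subunit genes (x axis, grouped by role between grey lines) in MM.1S (blue) and RPMI8226 (red). Dashed lines are the medians over all protein-coding genes with a promoter peak, 1047 bp in MM.1S and 761 bp in RPMI8226, and bands their quartiles. PSMB9 is the widest in both lines, PSMB6 the narrowest, and crosses mark PSMA8 and PSMB11, which have no promoter peak.

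PSMA1 to PSMA7 form the outer rings of the core, and the gate through which substrates enter. Their widest promoter peaks ranged from 715 bp (PSMA3) to 1625 bp (PSMA1) in MM.1S with a median of 918 bp. In RPMI8226 they ranged from 474 bp (PSMA7) to 1387 bp (PSMA1) with a median of 791 bp. The wide PSMA1 peak was not the one at its canonical start. It lay 123.9 kb upstream, at an alternative start beside the phosphodiesterase gene PDE3B, and the peak on the canonical PSMA1 start was 1081 bp wide in MM.1S and 889 bp in RPMI8226. PSMA2 was 962 bp in MM.1S and 486 bp in RPMI8226, and PSMA7 831 and 474 bp. PSMA4 (1146 and 1014 bp), PSMA5 (918 and 946 bp) and PSMA6 (873 and 791 bp) differed less between the lists.

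PSMA7 had 4 promoter peaks in MM.1S, the most of any member, and 2 in RPMI8226. Only the peak on its canonical start, 831 bp, was called in all 9 MM.1S libraries. The other 3 were 338, 473 and 313 bp wide with a support of 8, 6 and 8, and the last 2 had no counterpart in RPMI8226. Its start lies 375 bp from that of SS18L1, which is read in the opposite direction.

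The constitutive beta ring comprises PSMB1 to PSMB7, of which PSMB5, PSMB6 and PSMB7 carry the chymotrypsin-like, caspase-like and trypsin-like activities. PSMB5 (chr14:23016543-23035230, minus strand) had 1 promoter peak in each line, 912 bp in MM.1S and 844 bp in RPMI8226. PSMB6 (chr17:4796144-4798502, plus strand) had the narrowest widest promoter peak of all open members in both lines, 582 bp and 313 bp. PSMB7 (chr9:124353465-124415444, minus strand) had 1 peak of 734 bp in MM.1S and 1 of 591 bp in RPMI8226. The 3 catalytic genes were called in 9 of 9 and 5 of 5 libraries, and PSMB5, PSMB6 and PSMB7 were at percentiles 35.6, 9.93 and 19.1 of all genes by width in MM.1S. In RPMI8226 they were at percentiles 59.9, 6.75 and 30.2.

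Among the structural beta genes, PSMB2 had 1 promoter peak in each line, 933 bp in MM.1S and 567 bp in RPMI8226. PSMB3 had a peak of 1207 bp in MM.1S and 708 bp in RPMI8226 at its start. It also had a peak within its gene of 291 bp in MM.1S and 234 bp in RPMI8226, each with a support of 3, and an upstream peak of 277 bp with a support of 3 in RPMI8226 alone. PSMB1 shares its promoter window with TBP, the TATA-binding protein. The peak on the PSMB1 start was 549 bp in MM.1S and 395 bp in RPMI8226. The wider peak was 928 bp in MM.1S, centred 937 bp upstream of the start, and 862 bp in RPMI8226, centred 881 bp upstream. PSMB4 had 1 peak of 1007 bp in MM.1S and 1 of 807 bp in RPMI8226. PSMB4 (chr1:151399560-151401937) and the 19S ubiquitin receptor PSMD4 (chr1:151254709-151267479) both lie on the long arm of chromosome 1, in a part that is often gained in MM. PSMD4 had 1 promoter peak of 691 bp in MM.1S and 574 bp in RPMI8226.

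PSMB8, PSMB9 and PSMB10 replace the constitutive catalytic subunits in the immunoproteasome, which is induced by interferon gamma, is abundant in cells of the immune system and favours peptides suited to MHC class I. PSMB9 (chr6:32844136-32859851, plus strand) had the widest promoter peak of all members in both lines. The peak was 1926 bp in MM.1S (chr6:32853056-32854981) and 1841 bp in RPMI8226 (chr6:32852957-32854797), at percentiles 96.2 and 99.5 of all genes. The peak also held the start of TAP1, 488 bp away on the opposite strand, which encodes a subunit of the transporter that carries the cut peptides into the endoplasmic reticulum.

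PSMB8 (chr6:32840717-32844679, minus strand) starts 10145 bp from PSMB9. Its promoter peak was 1231 bp in MM.1S (chr6:32843862-32845092) and 1078 bp in RPMI8226 (chr6:32843960-32845037), at percentiles 67.3 and 81.0. An annotated alternative start of PSMB9, at position 32844136, also falls inside this peak in both lines, so that the peak counted for both genes. Most of the peak lay before the canonical PSMB8 start, with 1045 bp upstream and 185 bp downstream in MM.1S, and 990 and 87 bp in RPMI8226. By its alternative starts PSMB8 is annotated up to position 32844679, so that part of the upstream stretch lies inside the gene. All of these peaks were called in every library of their line.

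PSMB10 (chr16:67934506-67936864, minus strand) had the largest difference in width between the lists. In MM.1S it had 1 peak of 1793 bp, reaching from 333 bp upstream to 1459 bp downstream of the start. In RPMI8226 the same stretch held 2 peaks, 572 bp wide on the start and 666 bp wide centred 1041 bp downstream of it. All 3 were called in every library of their line. The second RPMI8226 peak also held the annotated start of a protein-coding gene without a symbol (ENSG00000261884), 1209 bp downstream of the PSMB10 start on the same strand. The outer edges of the RPMI8226 pair lay within 86 bp of those of the MM.1S peak, so that the lists differed in the bases between the peaks. How peak boundaries of different libraries were joined was not given in the sources used here, and its part in this difference was not tested.

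**Figure D3:**
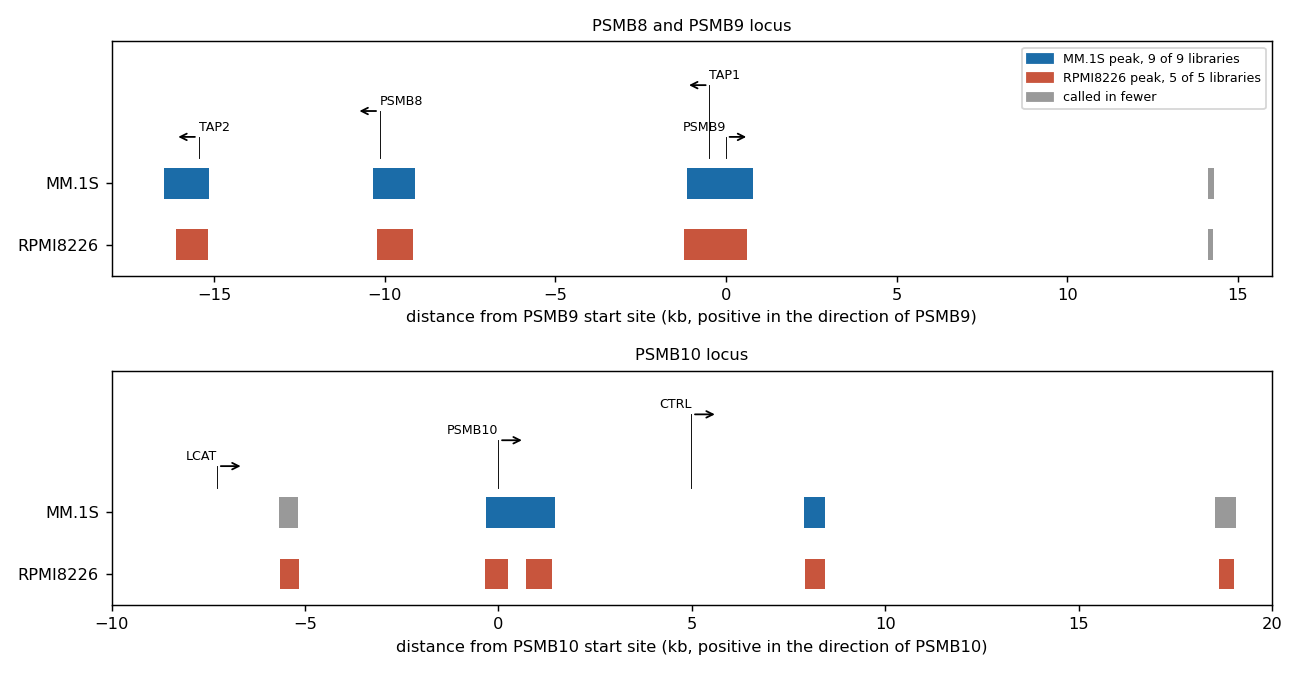
Reference peaks of MM.1S (blue) and RPMI8226 (red) around PSMB8 and PSMB9 (top) and PSMB10 (bottom), with grey for peaks called in fewer than all libraries. The x axis is the distance in kb from the start of PSMB9 or PSMB10, and arrows mark canonical starts of genes with a symbol and their direction. The PSMB9 and TAP1 starts share 1 peak in both lines, and the single MM.1S peak of PSMB10 stands opposite 2 RPMI8226 peaks.

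The immunoproteasome genes stood above the constitutive genes they replace in MM.1S, where 1231, 1926 and 1793 bp compared with 582 to 912 bp. In RPMI8226 PSMB8 and PSMB9 (1078 and 1841 bp) were wider than PSMB5, PSMB6 and PSMB7 (313 to 844 bp), whereas PSMB10 at 666 bp fell among them. These are 3 genes against 3 in 1 list per line, and no test was made.

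The ATPases PSMC1 to PSMC6 form the ring that unfolds substrates. All 6 had a promoter peak in every library, with a median widest width of 1013 bp in MM.1S and 759.5 bp in RPMI8226. PSMC1 was the second narrowest member in both lines, with 640 and 382 bp. PSMC5 was the widest of the ring in MM.1S, with 1424 bp against 1083 bp in RPMI8226. PSMC3 was 1059 bp in MM.1S and 1154 bp in RPMI8226, and PSMC4 967 and 741 bp. PSMC6 was 839 bp in MM.1S and 778 bp in RPMI8226. In PSMC2 the peak on the start was 566 bp in MM.1S and 321 bp in RPMI8226, and the widest peak of its window, 1088 and 594 bp, lay about 3 kb upstream, in a window shared with DNAJC2.

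The PSMD genes encode the scaffold, receptor and deubiquitinating subunits of the 19S regulator and several of its assembly chaperones. All 14 had a promoter peak in every library of both lines, with a median widest width of 1022 bp in MM.1S and 787.5 bp in RPMI8226. PSMD13 was the widest, with 1464 bp in MM.1S and 1205 bp in RPMI8226, and its start lies 634 bp from that of SIRT3, a mitochondrial deacetylase. PSMD6 was the third narrowest member in MM.1S with 686 bp, and measured 523 bp in RPMI8226. PSMD14, the deubiquitinase that strips ubiquitin from the substrate, was 770 bp in MM.1S and 675 bp in RPMI8226. PSMD11, a lid subunit, was 1265 and 1143 bp, and PSMD3, another lid subunit, was 1138 and 1027 bp.

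The scaffold subunit PSMD1 had a peak of 708 bp in MM.1S and 691 bp in RPMI8226 on its start. A second MM.1S peak of 1127 bp at an alternative start 104.9 kb downstream was called in 9 of 9 libraries and had no counterpart in RPMI8226. PSMD2, which binds ubiquitin-like shuttle factors, was 949 bp in MM.1S and 916 bp in RPMI8226, and had a further peak of 266 bp (support 6) and 295 bp (support 3). PSMD12 was 1069 bp in MM.1S and 645 bp in RPMI8226. Its second peak of 233 bp had a support of 6 in MM.1S, and its other peaks of 296 and 388 bp a support of 4 in RPMI8226. PSMD9 was 830 bp in MM.1S and 833 bp in RPMI8226, with a further MM.1S peak of 554 bp and a support of 4 that RPMI8226 lacked. PSMD13 had an inner peak of 411 bp with a support of 7 in MM.1S and of 128 bp with a support of 3 in RPMI8226.

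For the remaining PSMD genes there was 1 promoter peak in each line. PSMD5 was 975 bp in MM.1S and 958 bp in RPMI8226. PSMD7 was 1181 and 742 bp in the same order. PSMD8 was 911 and 704 bp. PSMD10, the assembly chaperone also known as gankyrin, was 1113 and 1053 bp and has its start 236 bp from that of the autophagy protease ATG4A. All 4 were called in every library.

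The activators PSME1 and PSME2 form the interferon-inducible cap of the core, PSME3 its nuclear relative, and PSME4 a single-chain activator. PSME1 (chr14:24136163-24138967, plus strand) had 1 promoter peak of 968 bp in MM.1S and 737 bp in RPMI8226. PSME2 (chr14:24143362-24147570, minus strand), which starts 10416 bp from PSME1, had a widest peak of 1336 bp in MM.1S and 1190 bp in RPMI8226. Nearly all of it lay upstream of the canonical PSME2 start, 1277 of 1336 bp in MM.1S and 1136 of 1190 bp in RPMI8226. By its alternative starts PSME2 is annotated up to position 24147570, so that part of this stretch lies inside the gene. The start of RNF31, which encodes a ubiquitin ligase of the linear chain complex, lies 888 bp upstream of the canonical PSME2 start. PSME3 (chr17:42824385-42843760, plus strand) was 1059 bp in MM.1S and 1080 bp in RPMI8226. PSME4 (chr2:53864069-53970993, minus strand), 120 bp from ACYP2, was 1287 and 1196 bp, with a further RPMI8226 peak of 141 bp and a support of 4 that MM.1S lacked. All 4 had a promoter peak in every library, and their medians were 1173 and 1135 bp.

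PSMF1 encodes a protein that inhibits the core in vitro. PSMF1 (chr20:1113240-1189415, plus strand) had a peak of 1062 bp in MM.1S and 1019 bp in RPMI8226 on its start. A peak of 976 bp at an alternative start 44.9 kb downstream was called in 9 of 9 MM.1S libraries and was absent from the RPMI8226 list.

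The MM.1S peak was the wider one in 38 of the 42 open members, a share of 90.5%, against 89.5% of the 13740 genes open in both lists. The median ratio of MM.1S to RPMI8226 width was 1.16 over the members (quartiles 1.08 and 1.52) and 1.29 over those genes (quartiles 1.09 and 1.74). The largest ratios were 2.69 for PSMB10, 1.98 for PSMA2 and 1.86 for PSMB6. The ratio was below 1 in PSMC3 (0.918), PSMA5 (0.970), PSME3 (0.981) and PSMD9 (0.996). Widths in the lists as a whole were also larger in MM.1S, so that the direction was that of most genes. Across the 42 members the widths in the lists had a Spearman rho of 0.682, beside 0.588 across the 13740 genes. Genes are not independent replicates, and all points share the same lists.

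**Figure D4:**
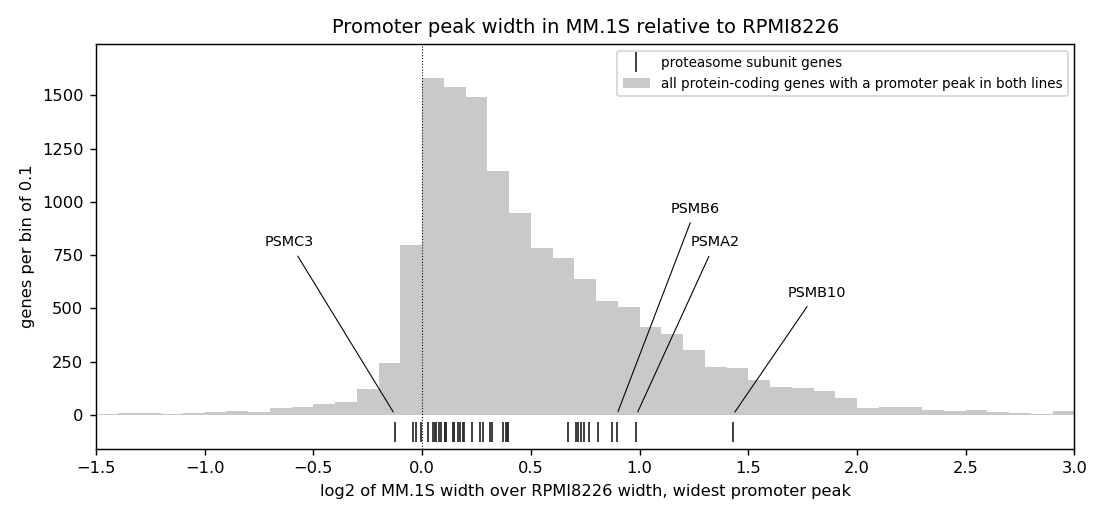
Histogram of the log2 ratio of the widest promoter peak width in MM.1S over RPMI8226 for the 13740 protein-coding genes open in both lists (grey, genes per bin of 0.1). Black ticks are the 42 open proteasome subunit genes. Of the ticks, 38 lie right of 0, where MM.1S is wider, and PSMB10 lies farthest right.

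The members had 59 distinct promoter peaks in MM.1S and 58 in RPMI8226. Of these, 50 and 51 were called in every library, or 84.7% and 87.9%, beside 72.0% and 77.1% of the promoter peaks of all genes. In MM.1S 54 and in RPMI8226 56 overlapped a peak of the other line, 91.5% and 96.6% beside 74.1% and 81.3%. By their support, 5 MM.1S peaks (8.47%) and 7 RPMI8226 peaks (12.1%) could have been missing from the MONO libraries, against 14.6% and 22.9% over all genes. These were second peaks of PSMA7, PSMB3, PSMD2, PSMD9 and PSMD12 in MM.1S, and of PSMB3, PSMD2, PSMD12, PSMD13 and PSME4 in RPMI8226. None of them was the peak on a canonical start.

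Other start sites near a member limit what a promoter peak can be assigned to. Of the 44, 16 had the start of another protein-coding gene within 2500 bp of 1 of their own, 36.4% against 26.8% of all genes. Without these, 26 of 28 members had a promoter peak in each line, and no share over all genes without such a start is given. A start on the opposite strand within 1000 bp, read away from the member, was found for 7 members (15.9%, against 9.46% of all genes). These were PSMA2 with MRPL32 at 202 bp, PSMA7, PSMB9, PSMD10, PSMD13, PSME2 and PSME4 with the partners and distances given above. Their widest peaks had a median of 1287 bp in MM.1S, from 831 to 1926 bp, and of 1190 bp in RPMI8226, from 474 to 1841 bp. All head-to-head genes had medians of 1217 and 932 bp. The 16 members with a neighbouring start had medians of 1172 and 1065.5 bp and the 26 open members without one 941 and 741.5 bp.

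In the gene body plus 20 kb on either side, members had a median of 3.5 peaks in each line, ranging from 1 to 8 in MM.1S and from 1 to 9 in RPMI8226. Over all genes the median was 4 in each line, with up to 45 and 62 peaks. No member was without a peak, whereas 1572 genes were in MM.1S and 1799 in RPMI8226. Members are short, with a median length of 16.6 kb against 27.5 kb over all genes. Per 100 kb of gene and flanks the median density was 5.43 peaks for members in MM.1S and 5.88 for members in RPMI8226, beside 4.40 and 4.44 over all genes. In MM.1S the most were counted at PSMA7 (8), PSMA1 (7) and at PSMA6 and PSMD2 (6 each), and PSMD5, PSMD7 and PSMD10 had 1. In RPMI8226 PSMA1 and PSMD12 had 9 and PSMD2 had 7, while PSMB2, PSMB4, PSMD1 and PSMD10 had 1. PSMD10 on chromosome X thus had its promoter peak and no other in both lines.

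Peaks outside the promoter window of every protein-coding gene, called distal here, were fewer and less widely shared. There were 47 around the members in MM.1S and 54 in RPMI8226. Of these, 25 (53.2%) and 28 (51.9%) overlapped a peak of the other line, beside 61.1% and 57.2% of the distal peaks around all genes. Called in every library were 22 (46.8%) in MM.1S and 30 (55.6%) in RPMI8226, beside 44.2% and 60.0%. By their support 19 (40.4%) and 24 (44.4%) could have been missing from the MONO libraries, against 32.2% and 40.0%. In MM.1S 15 members (34.1%) and in RPMI8226 16 (36.4%) had no distal peak, against 28.7% and 29.5% of all genes. Peaks that could have been missing from MONO were thus 19 of 47 distal and 5 of 59 promoter peaks in MM.1S, and 24 of 54 distal and 7 of 58 promoter peaks in RPMI8226.

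Of 12 motifs searched as fixed letters on both strands in the 300 bases, the one most frequent among the 39 members was GGGCGG, bound by SP factors, in 26 (66.7%). It was found in 61.8% of the 15365 protein-coding genes of the table, and in 73.0% of the 9876 of them that had a promoter peak in every library of both lines. CCAAT, bound by NF-Y, was in 17 members (43.6%), beside 36.6% and 37.5%. CCGGAAG, of the ETS type, was in 14 (35.9%), beside 14.8% and 20.4%. TGACNNNGC, the ARE core, was in 11 (28.2%), beside 14.3% and 15.5%.

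The ARE core members were the 19S genes PSMD1, PSMD3, PSMD5, PSMD9, PSMD12 and PSMC4, the beta genes PSMB3 and PSMB9, and the activators PSME1, PSME2 and PSME4. All were open in every library of both lines, as were 37 of all 39 members with a sequence. Of the 2201 genes of the table with an ARE core, 1526 were open in this way. The ETS members were PSMA6, PSMA8, PSMC1, PSMC2, PSMC6, PSMD6, PSMD7, PSMD8, PSMD9, PSMD12, PSMD13, PSMD14, PSME4 and PSMF1, of which PSMA8 was closed. Of the 2267 ETS promoters of the table, 2013 were open in every library of both lines. In 10 of the 14 ETS members (71.4%) a match began within 50 bases before the start, against 43.1% of the 2267. This position was counted after the matches were seen.

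GAAANNGAA, of the IRF type, was in 6 members (15.4%), beside 6.87% of the table and 6.41% of the open genes. These were PSMB4, PSMB8, PSMB10, PSMC2, PSME1 and PSME2. TTCNNNGAA, of the STAT type, was in 7 (17.9%), beside 6.68% and 6.07%, namely PSMA2, PSMA8, PSMB5, PSMB8, PSMC4, PSMD3 and PSME3. AAGATGGC, of YY1, was in 4 (10.3%), beside 4.15% and 5.79%. TATAAA was in 5 (12.8%), beside 9.42% and 5.17%. CACGTG, the E-box, was in 3 (7.69%), beside 8.87% and 10.1%, and GCGCATGC, bound by NRF1, was in 2 (5.13%), beside 4.37% and 5.83%. TGANTCA, the AP-1 sequence, was in 1 (2.56%), PSMD9, beside 5.51% and 4.22%. TGACGTCA, the cyclic AMP response element (CRE), was in 0, beside 2.76% and 3.49%. No member promoter held overlapping matches of the ARE core with CRE or AP-1, or between the ETS, IRF and STAT types. With 39 genes, 1 promoter is a share of 2.56%, and a match of letters is not a bound site.

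**Figure D5:**
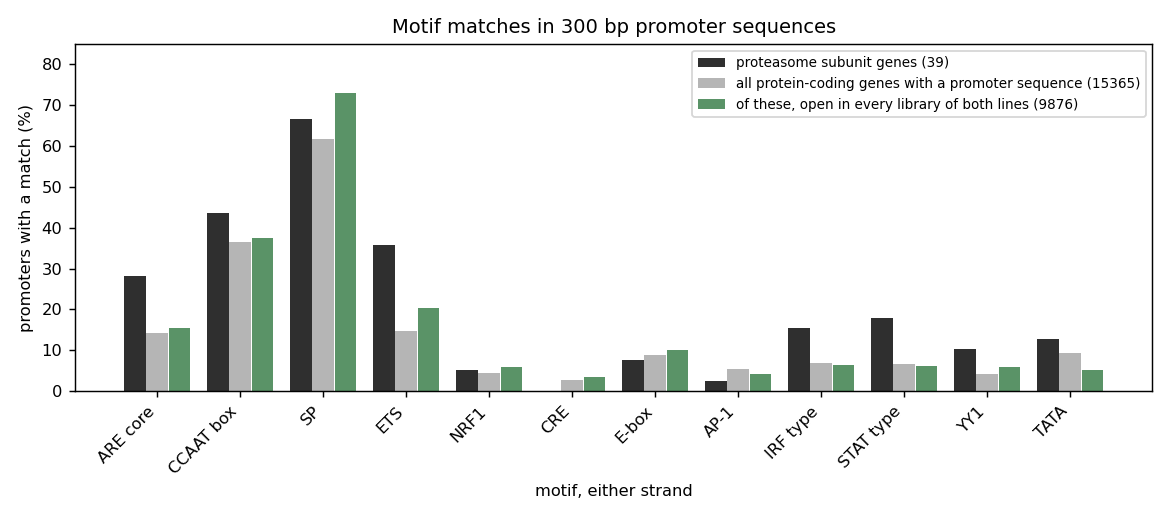
Percent of 300-base promoter sequences with at least 1 match on either strand for 12 motifs (x axis), in the 39 proteasome subunit genes with a sequence (black), all 15365 protein-coding genes of the table (grey), and the 9876 of these with a promoter peak in every library of both lines (green). The ARE core and ETS bars of the members, 28.2% and 35.9%, stand above both others, and their CRE bar is at 0.

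The promoters of the members had a median GC content of 61.3%, beside 63.7% over the table and 66.0% over its open genes. The median observed over expected CG ratio was 0.769, beside 0.783 and 0.852. Among the members whose sequence is printed, PSMB10 had the lowest ratio of the open genes, at 0.329, with a GC content of 54.0%.

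Genes that build, assist or regulate the proteasome, and partners of it in antigen processing, were taken from 4 lists. They comprised 6 assembly factors such as POMP, 13 associated subunits and ubiquitin receptors such as ADRM1, 5 factors for the transcription of subunit genes such as NFE2L1, and 8 antigen processing partners such as TAP1 and B2M. Every gene of the 4 lists had a promoter peak in every library of both lines, beside the 69.2% and 66.5% of all genes given above. The widest promoter peaks of the assembly factors had a median of 1146.5 bp in MM.1S and 1033 bp in RPMI8226, and those of the associated subunits and receptors 1341 and 832 bp. The antigen processing partners had medians of 1315 and 946 bp, and the promoter peak of TAP1 among them was the PSMB9 peak described above. The transcription list had the highest median of the 4 in both lines, 1461 and 1111 bp.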

How the data were processed

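Omni-ATAC was performed on 14 libraries of MM.1S and RPMI8226 under MONO, TSW and CO. By the methods and processing notes, the authors aligned reads to hg38 with Bowtie2, removed duplicates and multiply mapped reads, and called peaks with MACS3. A peak seen in at least 3 libraries entered the line's list. The deposited support number is of another unit than reads, without normalization by the authors. Its meaning was read from its range. The peak threshold, the joining of boundaries and any transposase shift were not given in the sources used here. The lists carry no depth, and read totals in the study's supplement were not used as data.

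Peaks were overlapped (at least 1 bp) with GENCODE 44 genes, whereas the study used RefSeq. No peak passed a chromosome end, and 39 of 39 member promoters equalled the hg38 sequence. Python 3.11.15, numpy 2.4.6, scipy 1.17.1 and matplotlib 3.10.9 were used. Overlap counting and motif search were tested on simulated data. Named were all members by role, with full values for catalytic, inducible, tissue-restricted and activator genes, PSMF1, and the extremes (3 each) of width, peak number and width ratio. Members and lists were chosen with earlier results of these data known. Alternatives changed the window, the TSS set, flanks, overlap, support and member names. A list of ubiquitin supply genes is not reported here.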

Additional observations from a re-analysis of the deposited data

How the results depend on the processing

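The share of members with a promoter peak was 95.5% in both lines with windows of 1000 or 5000 bp, with canonical starts or protein-coding transcripts alone, and with the start itself inside a peak, an alternative chosen after seeing the data. Over all genes the share was 72.9% and 80.9% in MM.1S with these windows, and 66.8% and 76.9% in RPMI8226. For MM.1S and RPMI8226 in turn, it was 71.5% and 65.2% with canonical starts alone. With protein-coding transcripts it was 73.6% and 68.1%, and with the start inside a peak 62.1% and 53.9%. Among members it was 92.9% without those near another gene's start, for which no share over all genes is given. The 46 names that only begin alike, which add PSMC3IP and PSME3IP1, gave 95.7%. The share of open members overlapping the other list fell from 100% to 97.6% in both lines when 50% of both peaks had to overlap. No share over all genes is given at that setting, so that this value describes the members alone. Median widths ranged from 941 to 1033 bp in MM.1S and from 741.5 to 820 bp in RPMI8226. With the start itself inside a peak the RPMI8226 members had 784.5 bp, below the 797 bp of all genes. With the other windows and TSS sets they stayed above all genes. In MM.1S the members were below all genes with each of these windows and TSS sets.

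The median number of peaks around a member depended on how it was counted. In MM.1S it was 1 without flanks, 7 with 50 kb flanks, 2 for peaks called in every library and 1 outside promoter windows, where all genes had 1, 6, 2 and 1. In RPMI8226 it was 1 without flanks, 6.5 with 50 kb flanks and 1 outside promoter windows, where all genes had 1, 7 and 1. Per 100 kb it was 5.43 and 5.88. By definition these alternatives count a smaller or larger stretch or fewer peaks, and the value per 100 kb is in another unit. Each list pools its libraries, so that no library could be left out, and no member count carries an error between cultures. No paired analysis was possible because the lists hold no value for a single library. The lists carry no depth, so that support could not be adjusted for it, and a weak peak called in fewer than 3 libraries does not appear in the lists.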
